A study of Mus musculus with 12 samples.

Results

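The genes described here encode 10 apolipoproteins that the liver secretes, Apoa1, Apoa2, Apoa4, Apoa5, Apob, Apoc1, Apoc2, Apoc3, Apoh and Apom. They were taken by symbol from the 55357 gene identifiers listed in each of 2 tables of raw read counts, and all 10 were listed in both tables. In the liver all 10 had counts and 9 passed the filter on low counts, whereas in the cells 6 had any count and 2 passed. The rule used their names and no measured value, although earlier results of these data were known when the genes were chosen.

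RNA was sequenced in 12 libraries that fell into 4 groups of 3. The liver libraries came from male wild-type C57BL6/J mice 8 to 9 weeks old. By gavage for 7 days the mice received 90 mg/kg/d of the plant coumarin esculetin or 2.5% Tween-80 alone. All of these mice ate a control diet with 10% of energy from fat for 4 days and then a high-fat diet with 60% for 3 days. Each liver sample pooled 2 mice, per the study's methods, so an SD over 3 libraries is a spread between pools. The cell libraries came from RAW264.7, an established mouse macrophage line. Those cells were held with 25 µg/mL of dye-labelled oxidized LDL for 24 h, with 40 µg/mL esculetin or with DMSO. Nothing in the labels states that the cell replicates were separate cultures, so p-values in the cells measure the spread between these samples, which may be technical.

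Apolipoproteins are the protein part of lipoproteins, the particles that carry cholesterol and triglyceride in blood. ApoB is the backbone of very low density and low density lipoproteins, and apoA-I is the main protein of high density lipoprotein (HDL). Smaller apolipoproteins move between particles and control the lipases and receptors that act on them, and hepatocytes are the main source of most of them. The question behind the comparison was whether esculetin, given during a change to fat-rich food, altered transcripts of the proteins that carry blood lipid.

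A liver library held 14659876 to 20346460 counts and a cell library 13752842 to 20001959. Hepatocyte markers were present in the liver, where 10 of 10 passed the filter and their summed level was 124200 to 146200 CPM (read counts scaled to the library's size) in controls and 115800 to 141000 with esculetin. In the cells 5 of 10 hepatocyte markers were at 0, and 7 of 7 macrophage markers passed the filter. One liver library, control replicate 1, stood apart by transcript length. Against the mean of the other 5 libraries it was lower by a median log2 difference of -0.41 over 186 genes with transcripts up to 750 bases and higher by 0.21 over 979 genes with transcripts over 6000 bases. Members whose value moved most without this library are given with and without it.

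In the liver no apolipoprotein gene was called as changed by esculetin. The test was edgeR's quasi-likelihood test, and a gene was called at a Benjamini-Hochberg adjusted p under 0.05 over all tested genes. At that threshold 0 of 9 members were called, beside 11 of 12813 tested genes (0.0859%). At an unadjusted p under 0.05 the count was 1 of 9, Apoa4, beside 8.37% of tested genes. The CPM of the groups did not overlap for 1 of 9, Apoc3, beside 14.5% of tested genes. DESeq2 and limma-voom called 0 of 9 as well. Of the 9 log2 fold changes, 6 were above 0 and 3 below, with a median of 0.07 beside -0.02 over all tested genes. Leaving Apoa4 aside, the 95% intervals of the other 8 lay between -0.55 and 0.59 on the log2 scale, and all intervals given here are at the 95% level.

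**Figure D1:**
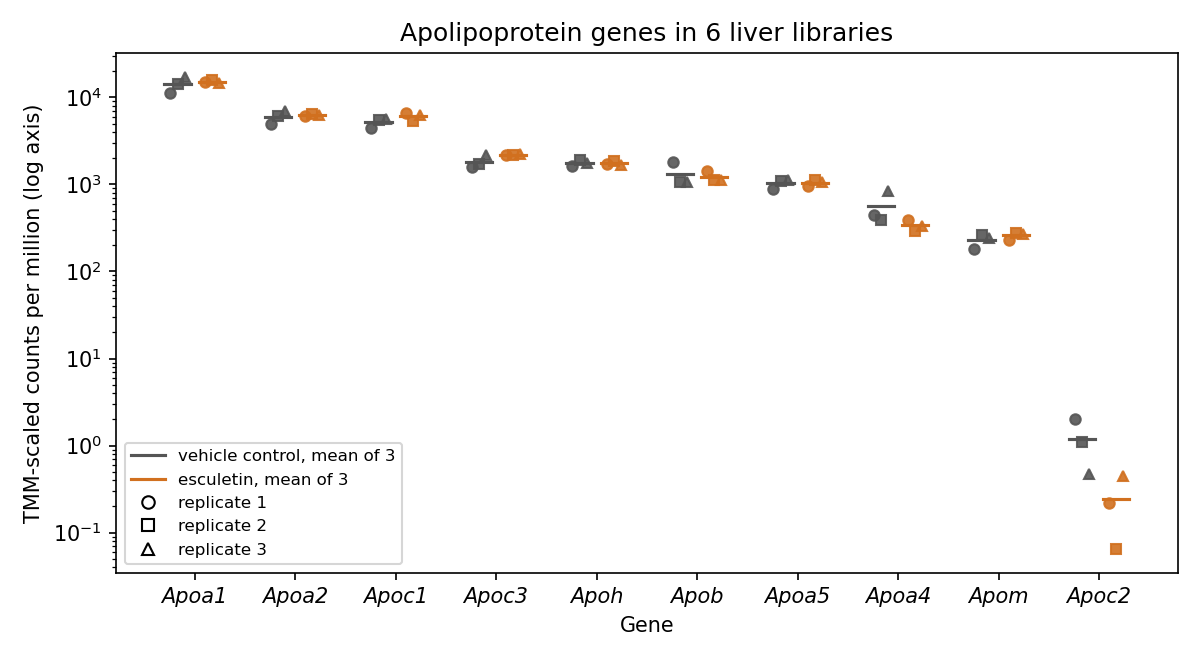
Level of each of the 10 genes in the 6 liver libraries, as CPM scaled by the trimmed mean of M-values (TMM) on a log axis; points are libraries, their shape is the replicate number, and bars are means of 3. Apoa1 is highest, at 11230 to 17320 CPM, and the esculetin points lie wholly above the controls for Apoc3 and wholly below them for Apoc2.

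The proteins of HDL came first by level. Apoa1 encodes apoA-I, which activates the enzyme that esterifies HDL cholesterol. Its level was 11230, 14210 and 17320 CPM in the control livers and 14880, 15670 and 14460 CPM in the esculetin livers. The esculetin libraries all lay inside the range of the controls, in which replicate 1 was lowest and replicate 3 highest. The log2 fold change was 0.07 (SE 0.17, interval -0.30 to 0.45, adjusted p = 0.930), and without control replicate 1 it was -0.07. Apoa1 held 1.44% ± 0.211 (SD, n = 3) of control counts and 1.47% ± 0.0687 of esculetin counts, and it ranked 5 or 6 among all genes of every library.

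Apoa2, the next protein of HDL by abundance, had 4908, 6075 and 6912 CPM in the controls and 6141, 6513 and 6303 CPM with esculetin. The order of the libraries was that of Apoa1 within the controls, and the groups overlapped. Its log2 fold change was 0.08 (SE 0.15, interval -0.25 to 0.42, adjusted p = 0.910), and it was -0.04 without control replicate 1. The ratio of Apoa1 to Apoa2 counts was 2.38 ± 0.114 (SD, n = 3) in controls and 2.37 ± 0.0701 with esculetin. Apom, which carries sphingosine 1-phosphate on HDL, was far lower, at 181.4, 259.7 and 241.1 CPM in the controls and 232.4, 277.3 and 267.7 CPM with esculetin. Its groups overlapped too, with control replicate 1 the lowest of the 6. The log2 fold change of Apom was 0.19 (SE 0.15, interval -0.13 to 0.51, adjusted p = 0.75), and without that library it was 0.05.

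Apob encodes the backbone protein of the triglyceride-rich particles. It stood at 1800, 1077 and 1071 CPM in the controls and 1420, 1123 and 1113 CPM with esculetin. Replicate 1 was the highest library of each group, and the other 4 lay close together. Its log2 fold change was -0.11 (SE 0.20, interval -0.55 to 0.32, adjusted p = 0.908), and without control replicate 1 it turned to 0.19. Apob has the longest transcript of the 10, with 13934 bases over 29 exons. In control replicate 1 it was 0.64 higher on the log2 scale than the mean of the other libraries, whereas 7 of the other 8 tested members, with shorter transcripts, were lower there. With the length trend of each library removed, an alternative chosen after seeing the data, the log2 fold change of Apob was 0.09.

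**Figure D2:**
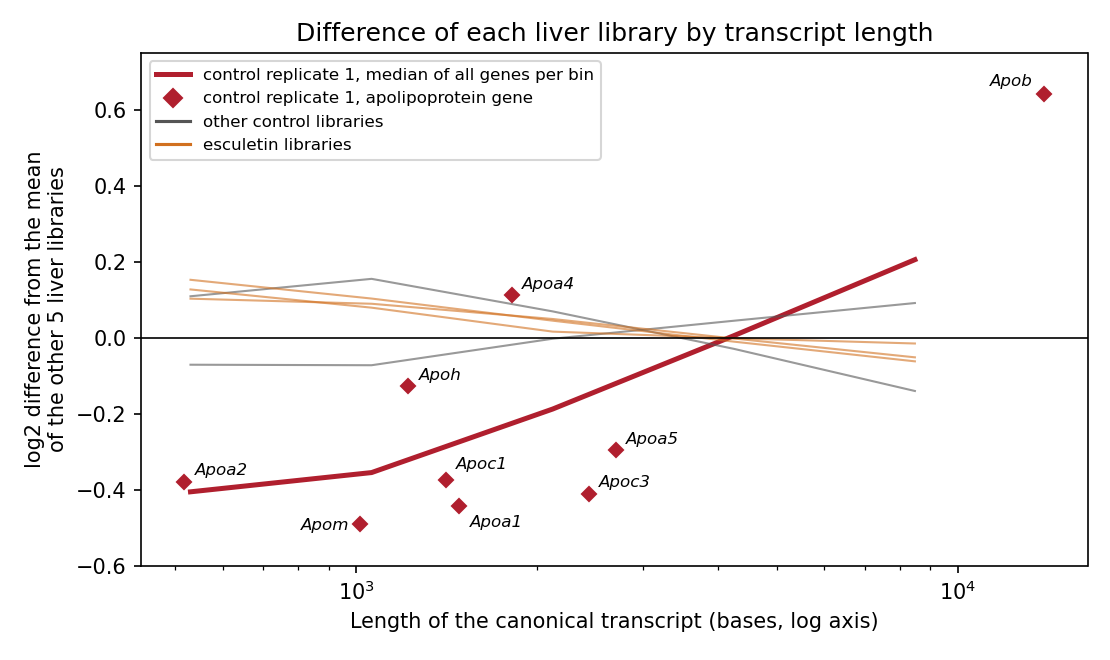
Log2 difference of each liver library from the mean of the other 5 against transcript length in bases (log axis); lines join medians over all genes with a mean of at least 10 CPM in 5 length bins, whose open outer bins are drawn at nominal positions, and diamonds are the 9 tested members in control replicate 1. The line of control replicate 1 rises from -0.41 to 0.21, Apob lies at 0.64 and Apom at -0.49.

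The remaining particle proteins act on triglyceride clearance. Apoc3 inhibits lipoprotein lipase and slows the uptake of particle remnants. It had 1570, 1724 and 2152 CPM in the controls and 2169, 2194 and 2243 CPM with esculetin. All esculetin libraries were above all controls, although control replicate 3 fell just below the lowest of them. On the log2 scale the fold change was 0.28 (SE 0.14, interval -0.04 to 0.59, adjusted p = 0.636), and it ran from 0.19, without control replicate 1, to 0.40, without control replicate 3, with 1 library left out at a time. In control replicate 1 its log2 difference from the other libraries was -0.41, beside a median of -0.19 over genes with transcripts between 1500 and 3000 bases.

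Apoc1, which modulates enzymes that act on HDL and restrains remnant uptake, had 4503, 5465 and 5673 CPM in the controls. With esculetin it had 6595, 5341 and 6200 CPM. Esculetin replicates 1 and 3 were above every control, and replicate 2 was below controls 2 and 3. Its log2 fold change was 0.21 (SE 0.15, interval -0.12 to 0.54, adjusted p = 0.727), which was 0.12 without control replicate 1 and 0.14 without esculetin replicate 1. Apoa5, which promotes triglyceride hydrolysis by lipoprotein lipase, was at 877, 1107 and 1130 CPM in the controls and 963.6, 1115 and 1078 CPM with esculetin. The groups of Apoa5 overlapped almost fully, with a log2 fold change of 0.02 (SE 0.14, interval -0.28 to 0.32, adjusted p = 0.981) that was -0.08 without control replicate 1, -0.03 without esculetin replicate 2 and -0.01 without esculetin replicate 3.

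Apoc2, the cofactor that lipoprotein lipase needs, had very few counts. It had 33, 22 and 8 counts in the controls and 4, 1 and 7 with esculetin, and it did not pass the filter. Every esculetin library was below every control, but 7 and 8 counts separate the nearest of them. With no filter on low counts edgeR called Apoc2 (log2 fold change -2.26, adjusted p = 0.0117), and likewise Apoa4, in a fit that called 339 of 22343 genes (1.52%). In the 4 fits with 1 library left out in which Apoc2 passed the filter, its adjusted p was 0.105 to 0.827. The locus shares most of its exons with another listed gene. Of the 799 exon bases of the canonical Apoc2 transcript, 646 (80.9%) lie on the same strand inside exons of the listed gene Apoc2l (ENSMUSG00000109350), and so do all 291 coding bases. The coding sequence is shown because a read from any of it falls in exons of both genes. It is read from GRCm39, on the minus strand of chromosome 7, in the segments chr7:19407472-19407526, chr7:19407154-19407304 and chr7:19405689-19405773, with the start and stop codons in capitals.
Apoc2: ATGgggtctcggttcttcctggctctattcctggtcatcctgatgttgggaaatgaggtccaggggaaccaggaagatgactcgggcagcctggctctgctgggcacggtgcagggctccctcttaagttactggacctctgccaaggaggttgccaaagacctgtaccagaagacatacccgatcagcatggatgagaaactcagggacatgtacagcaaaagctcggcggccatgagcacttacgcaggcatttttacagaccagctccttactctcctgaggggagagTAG
Apoc2l itself had 2, 1 and 7 counts in the controls and 4, 4 and 1 with esculetin. The neighbouring gene Apoc4 had 16957 to 32858 counts in the 6 libraries. How the counting treated reads that fall in more than 1 gene was not stated, so the level of Apoc2 in these livers could not be read from this table, and its part in the difference above was not tested.

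Apoa4, which encodes apoA-IV, a protein of chylomicrons and HDL that the mouse liver also makes, had the lowest p-value of the 9 tested members. It had 449.3, 386.5 and 838.1 CPM in the controls and 388.0, 294.5 and 335.2 CPM with esculetin. Control replicate 3 stood far above the other 5 libraries, and esculetin replicate 1 lay level with control replicate 2, so the groups overlapped. The log2 fold change was -0.72 (SE 0.24, interval -1.24 to -0.19, adjusted p = 0.452 in edgeR). Without control replicate 3 it was -0.32, with an adjusted p of 0.270. The log2 fold change was -0.85 without control replicate 1 and -0.92 without control replicate 2, with adjusted p of 0.273 and 0.403. The study's thresholds, an unadjusted p under 0.05 and a fold change over 1.5 with limma, were applied here in limma-voom. The study does not state that voom was used. By these thresholds Apoa4 was the 1 member called, beside 3.89% of tested genes. Its share of counts was 0.0564% ± 0.0218 (SD, n = 3) in controls and 0.0332% ± 0.00457 with esculetin.

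On the other strand, Gm47528 and Gm10680 cover 69.8% of the exon bases of Apoa4. They had 0 to 3 counts and 0 counts in a library, and without a strand-marking library reads of both strands cannot be told apart. Of 8 enterocyte markers, Cdx1, Cdx2 and Sis were at 0 in all 6 livers and 3 passed the filter. Their summed level was 489.6 to 542.3 CPM in controls and 400.8 to 447.8 CPM with esculetin, most of it from Mttp, Anpep and Fabp2. Mttp, the triglyceride transfer protein of apoB particle assembly, is a hepatocyte gene as well, and the part of these markers in the Apoa4 result was not tested. In bulk liver, fewer cells of a type and less RNA per cell cannot be told apart.

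Apoh, or beta-2 glycoprotein I, is a phospholipid-binding plasma protein. It had 1641, 1928 and 1782 CPM in the controls and 1708, 1860 and 1693 CPM with esculetin. These groups overlapped, and its log2 fold change was -0.02 (SE 0.13, interval -0.31 to 0.26, adjusted p = 0.974). Without control replicate 2 the log2 fold change was 0.03.

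**Figure D3:**
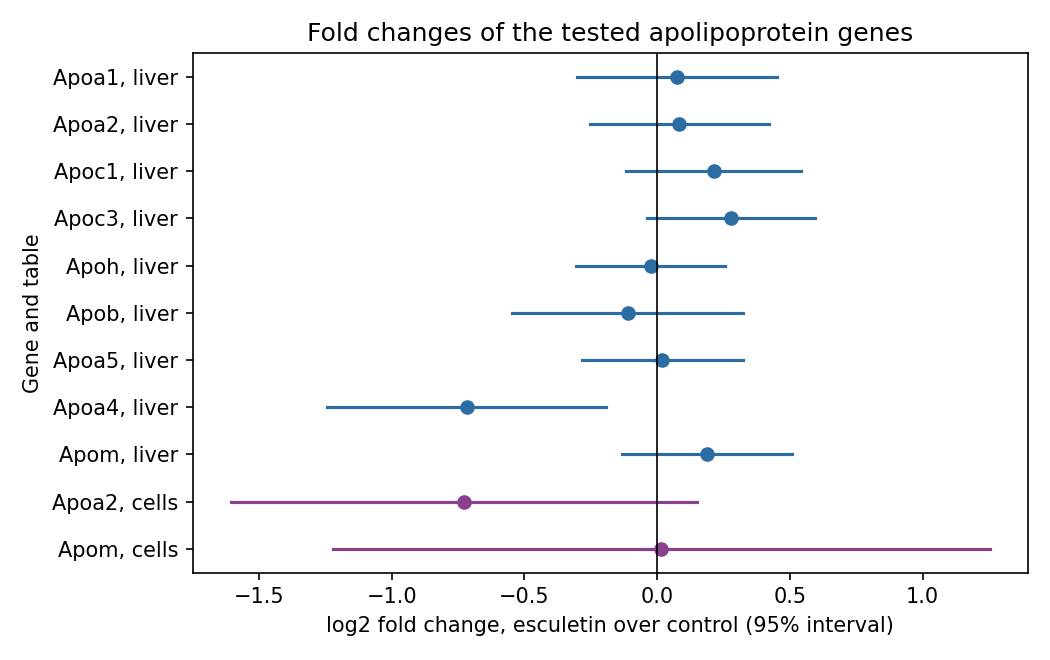
Log2 fold change, esculetin over control, with its 95% interval, for the 9 members tested in the liver and the 2 tested in the cells. Every interval but that of Apoa4 in the liver (-1.24 to -0.19) contains 0, and the intervals in the cells are the widest.

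Together the 10 genes held 3.02%, 3.21% and 3.57% of control counts and 3.38%, 3.38% and 3.27% of esculetin counts. The esculetin libraries lay between control replicates 2 and 3. The means were 3.27% ± 0.282 (SD, n = 3) and 3.34% ± 0.0635, a difference of 0.0748 percentage points (two-sided exact permutation test, p = 0.7, where 0.1 is the smallest p that 3 against 3 allows). Without control replicate 1 the difference was -0.0503 points. Apoa1, Apoa2 and Apoc1 made up 76.0% to 80.6% of these counts in each library. A share of counts is also set by transcript length, and the order of the genes depended on the length used. Per kilobase of coding sequence the controls had 17990 ± 3845 CPM of Apoa1, 19490 ± 3290 of Apoa2 and 19750 ± 2365 of Apoc1 (SD, n = 3), which do not differ beyond their spread. On that scale Apoc3 followed with 4202 ± 697.6 CPM, Apoh with 1724 ± 138.4, Apoa5 with 940.2 ± 126.6, Apoa4 with 470.8 ± 206.5 and Apom with 398.9 ± 71.76. The last 2 overlapped, and Apob came last of the tested genes with 97.39 ± 31.02 CPM per kilobase. Per kilobase of the whole canonical transcript, untranslated parts included, Apoa2 had 11520 ± 1944 CPM, Apoa1 9609 ± 2054 and Apoc1 3703 ± 443.3, so Apoc1 fell well below the other two. On this second scale Apoh, with 1461 ± 117.4 CPM, was above Apoc3, with 745.7 ± 123.8, and Apob was again last with 94.45 ± 30.09. Exons of other genes on the opposite strand cover 69.8% of the exon bases of Apoa4 and 19.4% of those of Apoa5 (Gm47544). The part of this overlap in the levels of Apoa4 and Apoa5 was not tested.

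**Figure D4:**
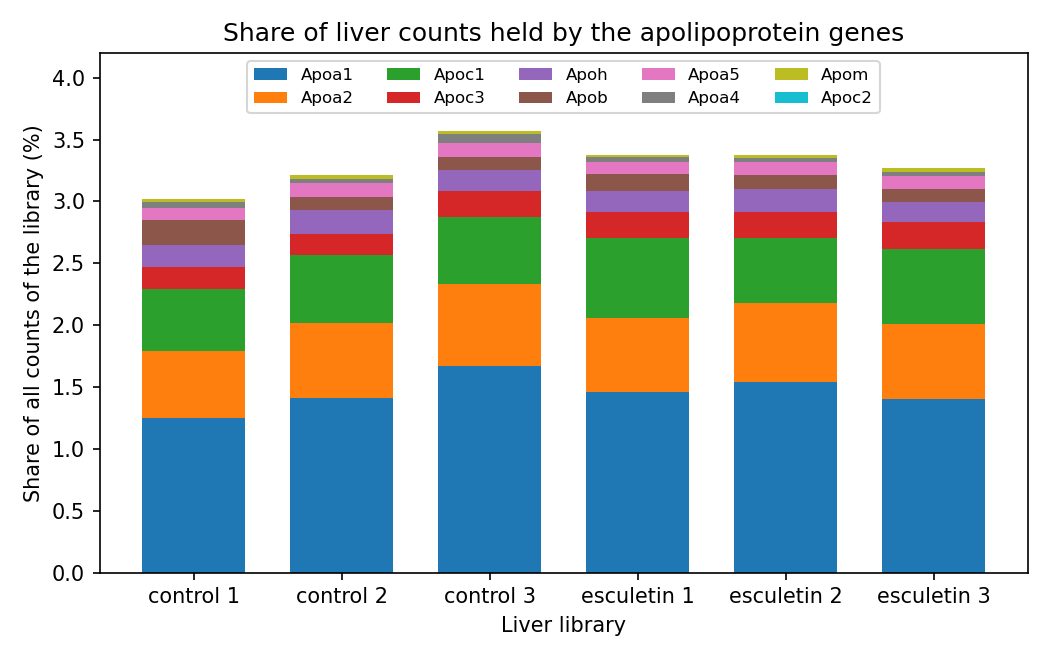
Stacked bars of the share of all counts (%) that each of the 10 genes held in each liver library. The bars reach 3.02% to 3.57% in controls and 3.27% to 3.38% with esculetin, and Apoa1 is the largest segment in all 6 libraries.

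Of the members, 4 lie within 1 gene cluster on chromosome 9 of GRCm39. These are Apoa1 (chr9:46139878-46142212), Apoc3 (chr9:46142527-46146934, on the minus strand), Apoa4 (chr9:46151994-46154757) and Apoa5 (chr9:46179931-46183217). Their log2 fold changes were 0.07, 0.28, -0.72 and 0.02. Apoc1 and Apoc2 lie in a cluster on chromosome 7 with Apoe, the apolipoprotein of remnant uptake, whose log2 fold change in the liver was 0.01. Control livers had 26420 ± 3682 CPM of Apoe (SD, n = 3), more than of any member. As a description, the mean profile of the tested members over the 6 libraries was lowest in control replicate 1 (-0.16 on the centred log2 scale) and highest in control replicate 3 (0.16). The genes with the most similar profile among 6750 others were Mrps18b, Ccnd3 and Rogdi, with Pearson r of 0.993, 0.991 and 0.990 over 6 libraries that share depth and scaling.

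The genes on which apolipoproteins act, or that act on them, were grouped in lists chosen by function. Of the 29 genes for assembly and secretion of apoB particles edgeR called 0 in the liver. An unadjusted p under 0.05 was found for 2 of the 29, beside 8.37% of all tested genes, and DESeq2 and limma-voom called 0. The smallest p-values there were those of Mttp, with a log2 fold change of -0.36 (adjusted p = 0.478), and of Tm6sf2, a membrane protein of particle lipidation, with -0.52 (adjusted p = 0.486). Of 15 genes of HDL formation and remodelling 1 fell and 0 rose. It was Pltp, which transfers phospholipid between particles, with 71.7 ± 0.839 CPM in controls and 32.6 ± 7.20 with esculetin (SD, n = 3, log2 fold change -1.14, adjusted p = 0.0225). In the same list Scarb1, the HDL receptor, had a log2 fold change of 0.36 (adjusted p = 0.478).

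Of 9 genes that control lipoprotein lipase 1 fell and 0 rose. It was Angptl8, which inhibits that lipase after feeding, at 52.4 ± 12.2 CPM in controls and 16.6 ± 2.91 with esculetin (SD, n = 3, log2 fold change -1.66, adjusted p = 0.0133). The calls of Pltp and Angptl8 were lost without control replicate 2, without esculetin replicate 1 and without esculetin replicate 3, and with scaling by library size alone. Each of those fits called 0 of all tested liver genes, so the loss was not particular to Pltp and Angptl8. Of 18 tested receptors edgeR called 0, with 4 at an unadjusted p under 0.05, whereas 1 was called by DESeq2, with no filter and without control replicate 3. Of 37 tested transcription factors of apolipoprotein genes edgeR called 0, with 7 at an unadjusted p under 0.05, whereas 2 were called by DESeq2, 6 with no filter, and 1 without control replicate 1 or 3. In that list Egr1 had -2.02 (adjusted p = 0.0839), Cebpb, which encodes C/EBP beta, had 0.71 (adjusted p = 0.209), and Nr1h4, the bile acid receptor, had -0.42 (adjusted p = 0.269). Of 18 tested genes of other apolipoproteins and carriers 0 rose and 1 fell, which was again Pltp, beside 2 called by DESeq2 and 4 with no filter. The HDL protein gene Saa4 had 0.67 (adjusted p = 0.309). Beside these liver lists, edgeR called 11 of all 12813 tested genes (0.0859%), and 8.37% had an unadjusted p under 0.05. DESeq2 called 98 of 12813 genes, and the fit with no filter called 339 of 22343 (1.52%). Without control replicate 1 the fit called 16 of 13108 genes, and without control replicate 3 it called 31 of 13047.

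C/EBP beta is named in the title of the series, so the bases before each start site were searched for its motif. RefSeq promoters were on hand for 8 of the 10 genes, all but Apoc1 and Apoc3, with 250 bases before the start each. The letters TTGCNNAA, on either strand, were found before Apoa2 and Apob, and in 9.56% of all 32851 promoters of the same length. The nuclear receptor motif AGGTCA was found before Apoa2, Apoc2 and Apoh, and in 14% of all promoters, and CACGTG was found before Apoa5 and in 6.02%. TATAAA was found before Apoa5, Apob and the second listed start of Apoa2, and in 12.4% of all promoters. By the gene coordinates used here, the windows of Apoh and of the second Apoa2 start lay wholly inside the gene. Of the 250 bases, 249 were inside the gene for Apom and 148 for Apoa4. The motifs did not overlap one another in these windows. The windows with the C/EBP letters are shown up to the first base of the gene, with all matches in capitals, and were placed on GRCm39 by their only exact match on the chromosome, both on the plus strand, at chr1:171048883-171049124 and chr12:8027427-8027647.
Apoa2: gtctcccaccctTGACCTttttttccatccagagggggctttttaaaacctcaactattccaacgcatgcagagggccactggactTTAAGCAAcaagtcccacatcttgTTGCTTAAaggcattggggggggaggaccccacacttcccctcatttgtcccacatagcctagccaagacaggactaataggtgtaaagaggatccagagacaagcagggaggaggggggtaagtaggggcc
Apob: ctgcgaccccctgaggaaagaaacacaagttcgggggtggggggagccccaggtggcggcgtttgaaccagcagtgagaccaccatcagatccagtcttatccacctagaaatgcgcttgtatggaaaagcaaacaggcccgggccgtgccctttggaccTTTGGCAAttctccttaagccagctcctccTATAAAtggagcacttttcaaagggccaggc
The log2 fold changes of these genes were 0.08 and -0.11. A match of letters is a description and not a binding site.

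In RAW264.7 cells these genes were near the floor of detection. Apoa1, Apoc2, Apoc3 and Apoh had 0 counts in all 6 libraries. Apoa4 had 1 count in all, Apoa5 had 3, and Apob and Apoc1 had 2 each, all in esculetin libraries. A count of 0 over the 57175796 counts of the control cells allows up to 0.0525 CPM, for counting error only. Against that limit, of 3 counts over the group, was set the mean control level in the liver, scaled by library size alone. That level was at least 275000-fold higher for Apoa1, at least 101000-fold for Apoc1, at least 26100-fold for Apob and at least 10700-fold for Apoa4. The 2 tables were counted separately.

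The 2 members tested in the cells were Apoa2 and Apom, and 0 of 2 were called, beside 57.7% of 13277 tested genes. Neither had an unadjusted p under 0.05 in edgeR, and DESeq2 and limma-voom called 0 of them at an adjusted p under 0.05. Apoa2 had 43, 36 and 46 counts in the controls and 31, 14 and 13 with esculetin. Scaled to library size these were 2.23, 1.94 and 2.24 CPM in the controls and 2.27, 0.954 and 0.725 CPM with esculetin, so replicate 1 was level with the controls, the other two were below them, and the groups overlapped. The log2 fold change was -0.73 (SE 0.40, interval -1.61 to 0.15, adjusted p = 0.141). Without esculetin replicate 1 it was -1.35 and was called (adjusted p = 0.00636), in a fit that called 57.8% of genes. The criterion of the study also called it, beside 38% of genes. Tomm40l, a mitochondrial import gene on the opposite strand, overlaps 20.4% of the exon bases over all Apoa2 transcripts. It had 193, 223 and 183 counts in controls and 105, 69 and 106 with esculetin (log2 fold change -0.76, adjusted p = 0.00687), and its part in the Apoa2 counts was not tested.

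Apom had 11, 8 and 11 counts in control cells and 11, 2 and 11 with esculetin. In CPM esculetin replicate 1 was the highest of the 6 libraries and esculetin replicate 2 the lowest, so the groups overlapped, and the log2 fold change was 0.01 (SE 0.56, interval -1.22 to 1.25, adjusted p = 0.983). The difference between the effects in cells and liver was tested for both genes in a model of all 12 libraries, in which 27.1% of 15709 genes were called. Cells minus liver, it was -0.87 for Apoa2 (SE 0.38, adjusted p = 0.105) and -0.22 for Apom (SE 0.49, adjusted p = 0.836), and neither was called. Without cell esculetin replicate 1 the difference for Apoa2 was -1.49 and was called.

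Some other apolipoproteins, among them Apoe and Clu, were detected in these cells at higher levels than the members. Apol9a and Apol9b, at 0.429 and 0.188 CPM in control cells, were below the 2.13 CPM of Apoa2. Apoe, which is no member here, had 205, 210 and 180 counts in controls and 93, 60 and 71 with esculetin, and fell by 1.06 on the log2 scale (SE 0.22, adjusted p = 0.00165). Among the other apolipoproteins and carriers 3 rose and 6 fell of 10 tested. Apobr, a macrophage receptor for apoB48, rose by 0.88 on the log2 scale, and Clu, the HDL-associated clusterin, fell by 0.81 from a control level of 79.97 ± 5.69 CPM (SD, n = 3), above the 10.2 ± 1.32 CPM of Apoe. Of 6 tested genes of HDL formation 3 rose and 3 fell. The cholesterol exporter Abcg1 had 82.8 ± 5.40 CPM in controls and 27.4 ± 3.27 with esculetin (SD, n = 3), while Pon3, an HDL-bound lactonase, rose by 1.82 on the log2 scale and Procr, the protein C receptor, by 2.84. Of 18 receptors 7 rose and 7 fell, among them Scarb1, which fell by 1.01. Of the 5 tested genes of lipoprotein lipase control 3 rose, led by Lpl with 0.53, Lmf1 with 0.29 and Sel1l with 0.28. That count was 1 without any single control library, without esculetin replicate 2, by library size alone and with no filter. Of the 23 tested assembly genes 10 rose and 2 fell. The vesicle coat gene Sec23a fell by 0.82, and Apobec1, which edits Apob mRNA, rose by 0.70 on the log2 scale. Of the 22 tested transcription factors 6 rose and 9 fell, among them Egr1, which rose by 4.92, and Foxo3, which fell by 1.19 on that scale. All these counts stand beside the 57.7% of genes called in that table.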

How the data were processed

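Per the labels and the study's methods, the authors sequenced paired 150-bp reads, used HISAT2 2.2.1 with GRCm39 and obtained gene counts with featureCounts. The labels also name mm10. The authors deposited raw counts in 2 tables, liver and cells. Strand setting, handling of reads with several places and annotation release were not given in the sources used here, and the named library kit does not mark strand. Of 55357 identifiers 54749 matched GENCODE vM39, which gave symbols, coordinates and lengths.

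The 2 tables were analysed separately in edgeR 4.0.16 under R 4.3.3 (filterByExpr, TMM factors, glmQLFit and glmQLFTest), with no covariate beside treatment. The p-values, all for two-sided tests, were adjusted by Benjamini-Hochberg over all tested genes. The SE was the log2 fold change divided by the square root of F. Log2 fold changes are edgeR's, with its default prior count. Alternatives were DESeq2 1.42.0, limma-voom (limma 3.58.1), other scalings and filters, a replicate block and each library left out. The fits were tested on simulated data with 200 genes changed. Of these, 77% with a log2 change of 1 and 96% with a change of 2 were recovered among 12644 liver genes. In the same fit 16 unchanged genes were called. The simulation gave all genes the same common spread and no length trend between libraries. Its recovery is therefore no measure of power in these livers. For liver libraries edgeR gave a common biological coefficient of variation of 16.5%, and for cell libraries 11.8%. Figures were drawn with Python 3.11.15 and matplotlib 3.10.9.

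The members and the lists were chosen with earlier results of these data known. All 10 members were named, and in each list genes were named from the 3 with the smallest p-values, beside the markers and overlapping or neighbouring genes of the members. The neighbours were chosen after their values were seen. CPM values were counts scaled by library size and TMM factor, except in the comparison of liver with cell levels, which used library size alone.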

Additional observations from a re-analysis of the deposited data

How the results depend on the processing

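The scalings by RLE and upper quartile, the filter at 1 CPM, DESeq2, limma-voom and the removed length trend left 0 members called in both tables. With no filter the liver count was 2 (Apoa4 and Apoc2). By the study's thresholds, applied in limma-voom, the count was 1 in the liver (Apoa4) and 1 in the cells (Apoa2). With 1 library left out the count was 0 to 0 in the liver and 0 to 1 in the cells. The direction turned for several members with values near 0. With 1 library left out, the liver log2 fold change ran from -0.0676 to 0.222 for Apoa1, from -0.0352 to 0.186 for Apoa2, from -0.0839 to 0.0689 for Apoa5, from -0.264 to 0.186 for Apob and from -0.0785 to 0.0347 for Apoh. In the cells it ran from -0.382 to 0.448 for Apom. By library size alone it was -0.0369 for Apoa5 in the liver and -0.0523 for Apom in the cells. With the length trend removed, chosen after seeing the data, it was -0.0925 for Apoa2 and 0.0892 for Apob in the liver. Apom in the cells was at -0.0262 with no filter and -0.236 in limma-voom. The cause was not tested.

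The summed share differed by -0.0503 to 0.228 points with 1 library left out. The difference of effects, cells minus liver, ran from -1.49 to -0.54 for Apoa2 and from -0.60 to 0.21 for Apom with 1 library left out, an alternative chosen after seeing the data, and with no filter that of Apoa2 was -0.88 and called.

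A replicate block was fitted because the groups share replicate numbers. The deviations of same-numbered libraries correlated at 0.153, -0.00791 and 0.112 in the liver and 0.188, -0.0392 and 0.107 in the cells, and replicate 2 did not correlate best with its own number, so the numbers were not taken as pairs. With the replicate block 0 members were called in either table, while all called genes went from 11 to 123 for liver and 7667 to 7982 for cells, and Apom in the cells was at -0.0531. In the liver the block called 1 receptor and 2 transcription factors of the lists. In the liver all called genes numbered 339 of 22343 with no filter, 98 with DESeq2, 0 by library size alone and 0 to 31 with 1 library left out.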
